A study of Mus musculus with 4 samples.

Results

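The B cell genes examined here were Cd79a, Cd79b, Ebf1, Pax5, Ms4a1, Ighm, Igkc, Blnk and Cd22, chosen by symbol as markers of the B lineage, with earlier results of these data known. All 9 were found once each among the 34745 genes of the count table, and 7 of them passed the filter on low counts, each with more than 10 counts in all 4 libraries. The libraries came from cultured primary mouse macrophages. Per the study's text these were bone marrow-derived macrophages, while the labels give only the word macrophage. The 2 control libraries are labelled WT and, per the study, came from G3bp1f/f mice, which carry a floxed G3bp1 gene. The 2 libraries labelled KO came from G3bp1mac-/- mice, which carry the same floxed gene and a Cre recombinase driven by Lyz2. This driver is active in monocytes, macrophages and granulocytes but not in B cells. No treatment, age or sorting step is given for these samples. G3BP1 is the scaffold protein of stress granules, cytoplasmic assemblies of stalled mRNA and protein.

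B cells recognise antigen through the B cell receptor, a membrane immunoglobulin made of heavy and light chains. The chains carry no signal themselves and rely on the paired proteins CD79A and CD79B, whose tails recruit the kinase SYK, after which the adaptor BLNK gathers downstream enzymes. EBF1 and PAX5 are transcription factors that establish and keep B cell identity, MS4A1 (CD20) is a surface protein of mature B cells, and CD22 is an inhibitory sialic acid-binding receptor. Blnk is also expressed in macrophages, and Cd22 has been described on microglia, the macrophages of the brain. Ebf1 is also expressed in stromal and fat cells. The remaining genes are largely restricted to B cells, which a macrophage culture is not meant to hold.

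Promoter sequences were available for 5 of the 9 genes, and those of Cd79a, Blnk and Cd22 are shown because the first is largely restricted to the B lineage and the latter are the B cell genes with the most counts in these libraries. Each runs 5′ to 3′ over 300 bases of the mouse genome, from 250 bases before to 50 after the gene's RefSeq start (build GRCm38.p6). Capitals mark every match, on either strand, to ATTTGCAT (the octamer bound by POU factors), CAGGTG (an E-box) or AGGAAGT (an Ets core).
Cd79a, chr7:24897247-24897546, plus strand: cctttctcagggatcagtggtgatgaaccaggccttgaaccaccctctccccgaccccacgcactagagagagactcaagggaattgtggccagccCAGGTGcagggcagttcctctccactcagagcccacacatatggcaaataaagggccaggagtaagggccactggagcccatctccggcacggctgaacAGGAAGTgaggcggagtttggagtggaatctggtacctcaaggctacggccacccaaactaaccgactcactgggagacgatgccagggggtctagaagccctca
Blnk, chr19:40994172-40994471, minus strand: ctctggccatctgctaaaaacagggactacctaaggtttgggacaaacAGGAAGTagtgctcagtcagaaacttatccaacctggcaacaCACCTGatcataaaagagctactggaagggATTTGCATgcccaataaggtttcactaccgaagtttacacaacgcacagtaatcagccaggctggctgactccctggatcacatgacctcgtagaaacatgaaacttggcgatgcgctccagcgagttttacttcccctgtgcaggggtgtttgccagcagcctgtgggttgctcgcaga
Cd22, chr7:30878979-30879278, minus strand: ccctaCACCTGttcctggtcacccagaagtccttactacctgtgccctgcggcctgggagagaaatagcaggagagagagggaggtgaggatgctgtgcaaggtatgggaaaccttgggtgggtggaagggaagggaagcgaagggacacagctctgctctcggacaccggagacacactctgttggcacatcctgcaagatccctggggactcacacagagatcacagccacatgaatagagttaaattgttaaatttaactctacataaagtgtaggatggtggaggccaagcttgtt
The Cd79a window held an E-box and an Ets core, the latter ending 49 bases upstream of the start. The Blnk window held all 3, with its octamer between 130 and 123 bases upstream, and the Cd22 window held an E-box as CACCTG. The octamer was present in 1.74% of all 32851 promoter windows, the E-box in 20.2% and the Ets core in 9.35%. These matches are letters in the windows and were not tested as binding sites.

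The libraries held 16724241 to 19747909 counts, where a gene at 0 could still lie at 0.152 to 0.188 CPM (the level of 3 counts on the TMM-adjusted library total), by counting error alone. G3bp1, the targeted gene, had WT counts of 1691 and 2875 and KO counts of 1307 and 2296, with overlapping libraries (log2 fold change -0.61, SE 0.40, edgeR adjusted p 0.904). Within the replicate numbers 1 and 2, KO lay below WT by log2 ratios of -0.57 and -0.63, the direction of the labels, although the labels do not say that the numbers pair the samples. Every direction below rests on the labels. The first principal component, with 57.4% of the variance, set replicate 1 of both genotypes apart from replicate 2, and the second, with 34.3%, set WT apart from KO. The labels do not say whether the samples of a genotype came from separate mice, so p-values measure only the spread between these samples.

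Among the B cell genes, 5 of the 7 tested genes were expressed in KO at 38.1% to 60.3% of the WT level, namely Igkc, Cd79b, Ms4a1, Cd79a and Ighm. Blnk and Cd22, the 2 most abundant by counts, were at 88.3% and 106% of it. In edgeR's quasi-likelihood test 0 of the 7 genes passed an adjusted p of 0.05 with a log2 fold change over 1, as did 0 of all 12418 genes (0%). At an unadjusted p under 0.05 there were 4 B cell genes, all lower in KO, where 1.99% of all tested genes were lower and 4.64% higher. The DESeq2 Wald test called 1 of the 7, Igkc (adjusted p 0.0146, over all alternatives 2.45e-05 to 1), beside 0.362% of all genes lower and 1.10% higher. The edgeR exact test called 0 of the 7, beside 0.290% lower and 1.55% higher, and limma on FPKM called 0 of the 7 and 0 of all 13407 genes it tested. With the replicate number as a block, which the labels do not explain, 3 of the 7 were called, all lower, beside 1.37% lower and 3.98% higher. Both KO libraries lay below both WT libraries for 6 of the 7 genes, against 16.9% of all tested genes with that order and 19.9% with the opposite order, and for 5 of the 7 by FPKM (fragments per kilobase, scaled to library size), where Blnk overlapped and where 9.40% of all tested genes had that order and 31.6% the opposite one. The median log2 fold change of the 7 genes was -0.80, beside 0.041 over all tested genes. In bulk RNA, fewer B cells and less RNA per B cell cannot be told apart.

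**Figure D1:**
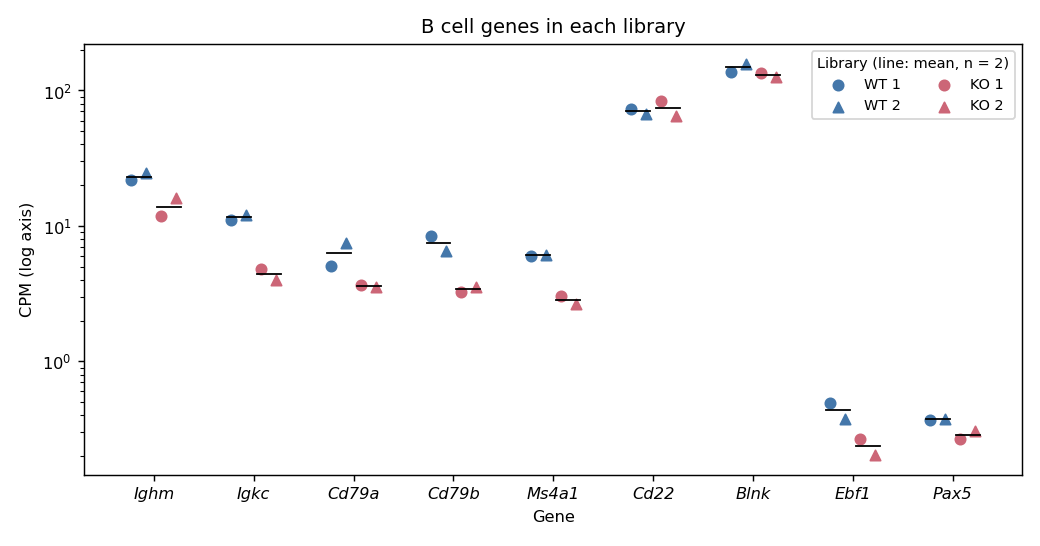
Level of each B cell gene in each library, in CPM on a log axis, with the mean of the 2 libraries of a genotype as a line. Blnk and Cd22 lie between 64.8 and 158 CPM with close genotypes, while Ighm, Igkc, Cd79a, Cd79b and Ms4a1 lie between 2.64 and 24.5 CPM, with both KO libraries below both WT libraries.

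Among the 5 genes at 38.1% to 60.3% of the WT level, the immunoglobulin chains were the most abundant. Igkc (ENSMUSG00000076609, chromosome 6, 70726435 to 70726966 on GRCm38, plus strand), a single-exon gene for the constant part of the kappa light chain, had WT counts of 180 and 193 and KO counts of 90 and 79. This made 11.6 ± 0.718 CPM for WT and 4.42 ± 0.576 CPM for KO (SD, n = 2 each). The WT and KO libraries lay well apart, and the spread within each genotype was small beside that gap. KO against WT gave a log2 fold change of -1.39 (SE 0.28, 95% interval -2.10 to -0.68), and its edgeR adjusted p of 0.289 was the smallest of the B cell genes. The smallest of any gene was 0.0863. Igkc lies inside the long non-coding RNA gene Gm30211 on the same strand, which is not among the counted genes.

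Ighm (ENSMUSG00000076617, chromosome 12, 113418558 to 113422730, minus strand) encodes the constant part of the mu heavy chain of IgM. It had WT counts of 352 and 390 and KO counts of 220 and 316, or 23.1 ± 1.96 and 13.9 ± 3.0 CPM (SD, n = 2 each). Its log2 fold change came to -0.73 (SE 0.26, 95% interval -1.39 to -0.068, edgeR adjusted p 0.676). Its libraries did not overlap, although KO replicate 2 stood closer to WT than KO replicate 1.

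The signalling pair of the receptor followed. Cd79a (ENSMUSG00000003379, chromosome 7, 24897381 to 24902197, plus strand) had WT counts of 82 and 120 and KO counts of 68 and 70, and Cd79b (ENSMUSG00000040592, chromosome 11, 106311341 to 106314762, minus strand) had 137 and 104 in WT and 61 and 70 in KO. The 2 WT libraries ranked in opposite order for the pair, whereas the KO libraries differed little. Mean Cd79b was 7.48 ± 1.36 CPM for WT and 3.41 ± 0.20 CPM for KO (SD, n = 2 each), with a log2 fold change of -1.13 (SE 0.31, 95% interval -1.92 to -0.35, edgeR adjusted p 0.452). Mean Cd79a was 6.29 ± 1.75 CPM for WT and 3.60 ± 0.0650 CPM for KO, with a log2 fold change of -0.80 (SE 0.34, interval -1.66 to 0.056, edgeR adjusted p 0.792). Its value rested in part on WT replicate 2, without which it was -0.52.

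Ms4a1 (ENSMUSG00000024673, chromosome 19, 11249675 to 11266241, minus strand) had WT replicates that lay close together, with 97 and 98 WT counts against 57 and 52 KO counts. These are 6.06 ± 0.121 CPM for WT and 2.85 ± 0.294 CPM for KO (SD, n = 2 each). KO against WT this gave -1.09 on the log2 scale (SE 0.30, interval -1.85 to -0.32, edgeR adjusted p 0.462). The other surface receptor, Cd22 (ENSMUSG00000030577, chromosome 7, 30865402 to 30880342, minus strand), had WT counts of 1185 and 1078 and KO counts of 1573 and 1277. Its genotypes overlapped, with the highest and the lowest level both in KO libraries, and the log2 fold change of 0.085 (SE 0.25, interval -0.54 to 0.71, edgeR adjusted p 0.982) turned to -0.11 without KO replicate 1 and to -0.0031 without WT replicate 2.

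The adaptor gene Blnk (ENSMUSG00000061132, chromosome 19, 40928927 to 40994535, minus strand) had the most counts, with 2220 and 2524 in WT and 2524 and 2469 in KO. Mean Blnk was 148 ± 15.2 CPM for WT and 130 ± 7.05 CPM for KO (SD, n = 2 each), where the nearest libraries of the genotypes had 137 and 135 CPM. This is a log2 fold change of -0.18 (SE 0.23, interval -0.76 to 0.40, edgeR adjusted p 0.964). Together Blnk and Cd22 took between 79.7% and 89.0% of the counts of the 9 genes in a library. All 9 genes summed to 263 and 283 CPM in WT and to 247 and 220 CPM in KO. Without Blnk and Cd22, a split that was not planned, the other 7 genes summed to 53.1 and 57.5 CPM in WT and to 27.1 and 30.3 CPM in KO.

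**Figure D2:**
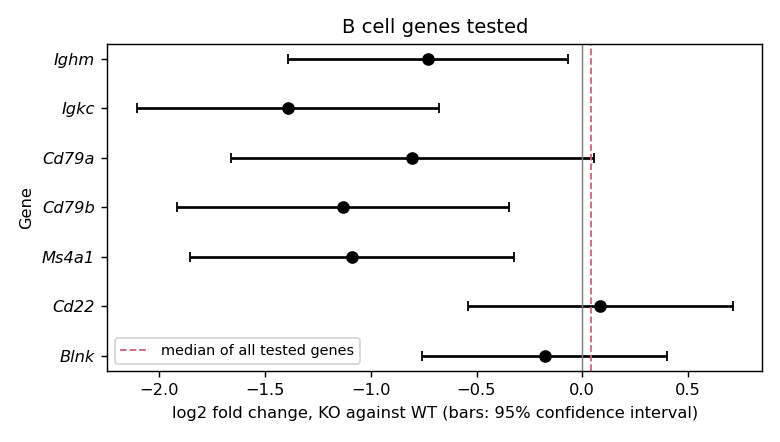
Log2 fold change of KO against WT for the 7 tested B cell genes (points) with 95% confidence intervals (bars). The intervals of Ighm, Igkc, Cd79b and Ms4a1 lie below 0, those of Cd79a, Cd22 and Blnk include 0, and the median of all tested genes is at 0.041.

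The transcription factor genes were near the floor. Ebf1 (ENSMUSG00000057098, chromosome 11, 44617317 to 45008091, plus strand) had WT counts of 8 and 6 and KO counts of 5 and 4. Pax5 (ENSMUSG00000014030, chromosome 4, 44524757 to 44710487, minus strand) had WT counts of 6 and 6 and KO counts of 5 and 6. Both KO libraries lay below both WT libraries in CPM for each, at levels of a few counts. Neither passed the filter on low counts, and without that filter the log2 fold change was -0.89 for Ebf1 and -0.39 for Pax5 (edgeR adjusted p 0.87 and 0.917). Per gene length, the order of mean levels over the 4 libraries was Blnk (22.2 FPKM), Igkc (14.7 FPKM), Ighm (8.21 FPKM), Cd22 (7.0 FPKM), Cd79a (3.35 FPKM), Cd79b (2.54 FPKM) and Ms4a1 (0.523 FPKM). Pax5 (0.0334 FPKM) and Ebf1 (0.0283 FPKM) came last. Ighm was above Cd22 in both WT libraries (9.33 and 10.4 against 6.68 and 6.11 FPKM). In KO it was below Cd22 in replicate 1 (5.93 against 9.02 FPKM) and above it in replicate 2 (7.21 against 6.20 FPKM). The ranges over libraries overlapped for Ighm and Cd22, for Cd79a and Cd79b, and for Pax5 and Ebf1, as did that of Igkc (7.52 to 21.4 FPKM) with those of Blnk, Ighm and Cd22. The antisense or unclassified genes of the table that overlap Ebf1, Pax5, Ms4a1 or Cd22 had 0 counts in all libraries.

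Rearranged immunoglobulin genes join a constant gene to 1 of many variable segments, so the segments show which receptors the RNA came from. Of 350 variable segments in the table, 127 had a count in some library, with 69 and 76 detected in the WT libraries and 53 and 55 in KO. Variable segments summed to 281 and 275 WT counts against 125 and 156 KO counts, or 17.3 and 17.2 CPM against 6.70 and 7.92 CPM. Each of the heavy, kappa and lambda classes of variable segments was lower in both KO libraries than in both WT libraries. The lambda constant genes had WT counts of 117 and 95 and KO counts of 34 and 44, and lambda made up 39.4% and 33.0% of light chain constant counts in WT and 27.4% and 35.8% in KO, which overlapped. Constant genes of switched isotypes (IgG, IgA, IgE) had only 7 and 7 WT counts against 1 and 4 KO counts, against 377 and 421 and 233 and 325 counts for mu and delta. Members of these families are near copies of each other, and counts may be shared among them.

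The variable segment with the most counts was Igkv14-126, named after its values were seen, with 41 and 64 WT counts against 7 and 16 KO counts (log2 fold change -2.44, SE 0.55, edgeR adjusted p 0.313). Next was Ighv11-2, named likewise, with 23 and 25 WT counts against 7 and 9 KO counts (log2 fold change -1.82, SE 0.47, edgeR adjusted p 0.387). Both passed the filter through their WT counts, so their direction adds no support. These segments form a heavy and light chain pair known from B-1 cells, innate-like B cells of the body cavities that recognise phosphatidylcholine. The pair took 22.8% (exact 95% binomial interval 18.0 to 28.1) and 32.4% (26.9 to 38.2) of variable segment counts in WT and 11.2% (6.26 to 18.1) and 16.0% (10.6 to 22.7) in KO. These intervals cover counting error only, and the shares are a description of segments picked for their high counts. The study gives bone marrow as the source of the cells, and whether cells of a body cavity were present was not tested. The other phosphatidylcholine pair, Ighv12-3 with Igkv4-91, had 7 and 4 and 13 and 3 counts in WT and 2 and 3 and 7 and 10 counts in KO. Among constant genes, Iglc2 of the lambda light chain had WT counts of 65 and 57 and KO counts of 16 and 28 (log2 fold change -1.72, SE 0.41, edgeR adjusted p 0.355).

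**Figure D3:**
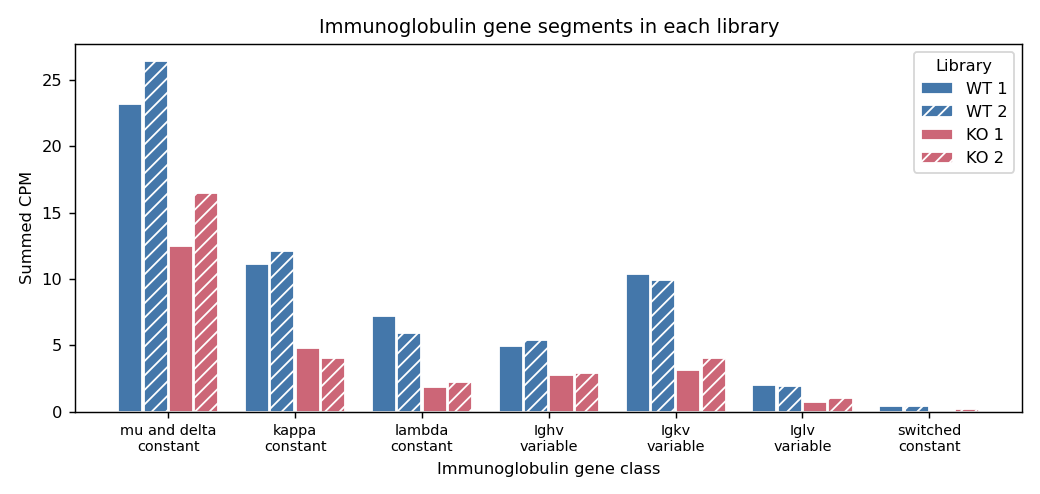
Summed CPM of immunoglobulin gene classes in each library (1 bar per library). In every class drawn both KO bars lie below both WT bars, from 12.5 and 16.5 against 23.2 and 26.4 CPM for the mu and delta constant genes to 0.0536 and 0.203 against 0.431 and 0.439 CPM for switched constant genes.

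Genes of the B cell programme outside the 9 were described by lists, whose calls by other tools are given with the alternatives. At an unadjusted p under 0.05 in edgeR there were 1 lower and 1 higher surface receptor gene, 1 higher precursor gene, 2 lower transcription factor genes, 1 higher signalling gene and 0 plasma cell genes, where 1.99% of all tested genes were lower and 4.64% higher, so that 1 of 25 signalling genes was near the background. Of the lower transcription factor genes, Pou2af1 passed the low-count filter through its WT counts and adds no support. Of the list of 20 other surface receptors, 16 were tested and 0 were called, with a median log2 fold change of -0.52, 12 below 0 and 4 above. Tnfrsf13c, named after its values were seen, had WT counts of 15 and 10 and KO counts of 6 and 7. It passed the filter through its WT counts, so its direction, this tally and this median add no support. The most abundant genes of the list were Cd24a (log2 fold change 0.25, SE 0.22), Cd37 (-0.0037, SE 0.21), Cd40 and Tnfrsf13b (-0.032, SE 0.25), which myeloid cells also express. Cd40, the receptor for T cell help, had 32 counts in WT replicate 1 and 44 in KO replicate 1, against 2038 and 1511 in the libraries numbered 2, so that its level followed the number and not the genotype. Ly6d, a surface protein of early lymphoid and B cells named after its values were seen, had WT counts of 93 and 58 and KO counts of 26 and 27 (log2 fold change -1.76, SE 0.39, edgeR adjusted p 0.312). In the opposite direction, and named likewise, the tetraspanin gene Cd81 had WT counts of 300 and 286 and KO counts of 502 and 538 (log2 fold change 0.57, SE 0.21, edgeR adjusted p 0.680), and the Fc receptor-like gene Fcrl1 had WT counts of 38 and 33 and KO counts of 75 and 51 (log2 fold change 0.58, SE 0.39).

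Genes of B cell precursors in the marrow were close to absent where they are specific. Rag1 and Rag2, the recombinase that joins the segments, and Vpreb2 had 0 counts in every library. Igll1, a part of the surrogate light chain, had WT counts of 0 and 4 and KO counts of 0 and 0, and Vpreb1, another part of it, had WT counts of 3 and 1 and KO counts of 3 and 5. Of this list of 16 genes, 5 were tested and 0 called, and the abundant ones were Il7r (log2 fold change 0.022, SE 0.30) and Cd93 (0.45, SE 0.38), both also expressed by myeloid cells. Sox4, a transcription factor, had WT counts of 21 and 21 and KO counts of 116 and 102 (log2 fold change 2.12, SE 0.34, edgeR adjusted p 0.250), opposite in direction to Igkc, and Bach2 had 16 and 14 against 14 and 9. Rag1, Rag2, Vpreb1, Vpreb2 and Igll1 were named after their values were seen.

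Among 13 B cell transcription factor genes, 12 were tested, 0 were called and the median log2 fold change was 0.12. Spi1, Irf8, Ikzf1 and Bcl6, which macrophages share, had log2 fold changes of -0.19 (SE 0.53), 0.28 (SE 0.41), -0.034 (SE 0.34) and 0.77 (SE 0.56). Pou2af1, the B cell coactivator of the octamer factors, had WT counts of 16 and 20 and KO counts of 7 and 8 (log2 fold change -1.5, SE 0.50, edgeR adjusted p 0.616). Irf4, a factor of plasma cells and of alternatively activated macrophages, had WT counts of 178 and 183 and KO counts of 80 and 54 (log2 fold change -1.67, SE 0.34, edgeR adjusted p 0.289). Pou2af1 and Irf4 were named after their values were seen. Of 12 plasma cell genes, 4 were tested and 0 called, with a median of -0.28. Sdc1 (-0.11, SE 0.22), Xbp1 (-0.095, SE 0.22) and Prdm1 (-0.45, SE 0.52) are shared with macrophages, while Mzb1 had WT counts of 29 and 25 and KO counts of 7 and 22 (-1.16, SE 0.61). Mzb1 passed the filter through its WT counts, so neither its direction nor the median of the 4 genes adds support.

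All 25 genes of B cell receptor signalling were tested and 0 were called, with a median log2 fold change of 0.045, 10 below 0 and 15 above. This machinery is shared with the Fc receptors of macrophages. Its most abundant genes, the kinase gene Syk, the phosphatase gene Ptprc, Malt1 and Fcgr2b, had log2 fold changes of -0.0044 (SE 0.72), 0.042 (SE 0.35), -0.088 (SE 1.23) and -0.17 (SE 0.43). Syk and Malt1 had 246 and 69.4 CPM in WT replicate 1 against 862 and 656 CPM in WT replicate 2, a spread that far exceeded the difference between genotypes. Blk, a SRC-family kinase largely restricted to B cells and named after its values were seen, had WT counts of 19 and 27 and KO counts of 15 and 13 (log2 fold change -0.96, SE 0.46). The kinase gene Prkcb, named likewise, had WT counts of 419 and 326 and KO counts of 862 and 669 (log2 fold change 0.79, SE 0.27, edgeR adjusted p 0.651), and was the signalling gene at an unadjusted p under 0.05. Bank1, a B cell scaffold gene named likewise, had WT counts of 41 and 31 and KO counts of 48 and 33 (log2 fold change -0.074, SE 0.41).

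Markers of other cell types were summed beside the B cell genes. Neutrophil genes (9, of which 4 had at most 3 counts in every library, with Mpo and Elane at 0) summed to 28.2 and 25.7 CPM in WT and 7.88 and 11.8 CPM in KO. By mean CPM over the 4 libraries they were led by S100a8 (235 and 242 against 133 and 209 counts) and Retnlg (99 and 71 against 3 and 9 counts). Erythroid genes summed to 10.7 and 7.65 CPM in WT and 1.88 and 2.49 CPM in KO, led by Hbb-bs (110 and 87 against 18 and 37 counts) and Hba-a1 (40 and 22 against 13 and 8 counts). T and NK cell genes (11, with 1 count of Cd3e in all) summed to 4.07 and 4.39 CPM in WT and 2.09 and 2.89 CPM in KO, led by Lck and Cd3g by mean CPM over the 4 libraries. Cd4, named after its values were seen, was above Cd3g in both WT libraries (0.554 and 0.627 against 0.431 and 0.502 CPM). In KO, Cd4 had 0.322 and 0 CPM against 0.268 and 0.406 CPM for Cd3g. Plasmacytoid dendritic cell genes (8, with Klk1 at 0 and at most 2 counts of Siglech) summed to 154 and 141 CPM in WT and 100 and 108 CPM in KO, nearly all from Bst2 and Tcf4, which are not restricted to these cells. The lower sum came mostly from Bst2 (130 and 119 CPM against 73.2 and 88.2 CPM), while Tcf4 was higher in both KO libraries (15.5 and 14.8 CPM against 20.3 and 15.7 CPM). Macrophage genes (8 symbols, with Lyz2 and Cd68 the most abundant) summed to 26512 and 24079 CPM in WT and 21122 and 24207 CPM in KO, which overlapped. Most of each sum was Lyz2 (21856 and 18666 against 16854 and 19483 CPM), the Cre driver gene. Cd68 was lower in both KO libraries (3277 and 3298 against 2886 and 2933 CPM). Of the 9 tested entries of these symbols, 8 had a log2 fold change below 0 and 1 above, with a median of -0.18. The neutrophil, erythroid, T and NK cell and plasmacytoid dendritic cell sums thus lay lower in KO beside Igkc, Ighm, Cd79a, Cd79b and Ms4a1, though each sum rested on a few genes and single members such as Lck and Trac overlapped between genotypes. Their part in the difference was not tested.

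**Figure D4:**
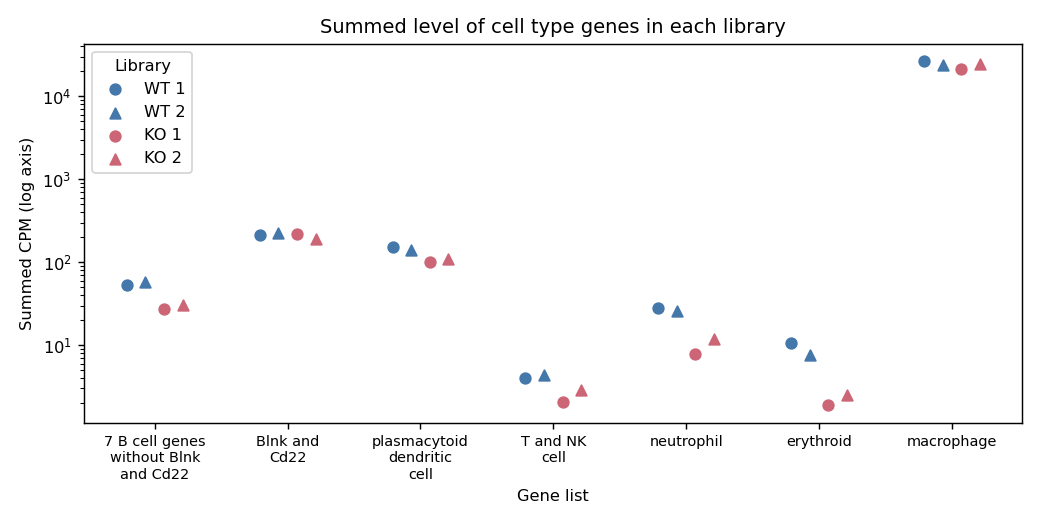
Summed CPM of each list of cell type genes in each library, on a log axis. The 7 B cell genes without Blnk and Cd22 and the neutrophil, erythroid, T and NK cell and plasmacytoid dendritic cell lists have both KO libraries below both WT libraries, while Blnk with Cd22 and the macrophage list overlap.

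The genes whose pattern over the 4 libraries lay nearest to each B cell gene were found by the root mean square difference of centred log2 CPM. For Ighm they were Psme1 (0.054) and S100a8 (0.059), for Igkc Irf7 (0.063) and Flywch2 (0.10), and for Ms4a1 Phf11d (0.046) and Ltb (0.070), the gene of lymphotoxin beta. For Cd79a they were Atp11a (0.061) and Ikzf3 (0.068), a lymphoid transcription factor, and for Cd79b Myom1 (0.060) and Gm6061 (0.062). For Blnk they were Rnf135 (0.011) and Dus1l (0.020), and for Cd22 Cab39 (0.0052) and Entpd5 (0.010). Among the B cell genes themselves, Ms4a1 and Igkc were nearest (0.160), followed by Ms4a1 and Cd79b (0.183) and by Blnk and Cd22 (0.194), and Igkc and Cd22 were farthest apart (0.730). Each distance rests on 4 libraries.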

How the data were processed

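Total RNA of cultured macrophages was sequenced in 4 libraries, 2 labelled WT and 2 labelled KO. The authors filtered reads with Seqtk, aligned them with Hisat2 (2.0.4) and counted fragments per gene with StringTie (1.3.3b). The deposited counts were raw whole numbers, and the authors' FPKM stood beside them. The submitters' processing notes name mm39, but 27699 of 34267 matched gene identifiers had the same start and end in GENCODE M21, so positions are given on GRCm38. Use of strand is not given in the sources used here. Genes were filtered with filterByExpr (minimum count 10, minimum total 15), which kept 12418 of the 17991 genes with any count, scaled by TMM (factors 0.942 to 1.12) and tested with glmQLFit and glmQLFTest of edgeR 4.0.16 in R 4.3.3, two-sided, with Benjamini-Hochberg adjustment over all tested genes. Genotype was the only term. Calls required both an adjusted p below 0.05 and a log2 fold change beyond 1 in either direction. Mean ± SD is over 2 libraries. No pair of libraries was a duplicate (lowest chi-square over its degrees of freedom, 23.1). FPKM were used for levels between genes and, as log2(FPKM + 1) with a minimum of 0.1 in 2 libraries, in limma 3.58.1. The other settings tried were DESeq2 1.42.0 (size factors and Wald test), the edgeR exact test, DESeq2's size factors in edgeR, no low-count filter, a filter at mean CPM 1, no minimum fold change, a replicate term and leaving out each library. The code was tested on simulated data. The B cell genes and lists were chosen with earlier results of these data known. Named genes were the 9 B cell genes, G3bp1 and Lyz2, called genes and the 4 most abundant tested genes of a list, the 2 most abundant of a marker list, the 2 genes nearest in pattern (prior count 2) to each tested B cell gene, and the 3 immunoglobulin genes with the most counts (Ighm, Igkc and Iglc2). Any other gene was chosen after its values were seen. The Cre driver gene Lyz2 had an adjusted p of 0.962 in edgeR (log2 fold change -0.16, SE 0.17).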

Additional observations from a re-analysis of the deposited data

How the results depend on the processing

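The log2 fold changes of Igkc, Ighm, Cd79a, Cd79b, Ms4a1 and Blnk kept their direction under all 11 alternatives, and that of Cd22 under 9. Cd22 reversed without WT replicate 2 (-0.0031) and without KO replicate 1 (-0.1144), within a range of -0.1144 to 0.2564 with a library left out. The median of the tested B cell genes, recomputed under these settings after seeing the data, was -0.479 in limma on log2(FPKM + 1), a scale that understates changes of low genes, and ran from -0.9737 to -0.6732 with a library left out. Over all genes, 0 calls became 664 with the replicate block, 181 in the DESeq2 Wald test and 229 in the edgeR exact test, and 0 to 1 with a library left out (Pkp2 without WT replicate 1 or WT replicate 2). The cause was not tested. Of the 7 tested B cell genes, the DESeq2 Wald test called 1 (Igkc). Among the lists, the DESeq2 Wald test and the edgeR exact test each called 1 of 5 precursor genes (Sox4, higher) and 1 of 12 transcription factor genes (Irf4, lower). Over all genes, the DESeq2 Wald test called 0.362% lower and 1.10% higher, and the edgeR exact test 0.290% lower and 1.55% higher.

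Whether the replicate number marks a batch is not given, and the 2 pairs cannot settle it. Around the genotype means, libraries that share a number deviated together (r = 0.710 across genes). In the fit with the replicate block, 3 B cell genes were called, all lower in KO, namely Igkc (adjusted p 2.45e-05), Cd79b (0.00385) and Ms4a1 (0.0091), where 1.37% of all genes were called lower and 3.98% higher, and Ighm had an adjusted p of 0.0301 at a log2 fold change of -0.74. The block also called 1 of 16 surface receptor genes (Ly6d, lower), 1 of 5 precursor genes (Sox4, higher) and 1 of 12 transcription factor genes (Irf4, lower). It called 1 of 25 signalling genes (Rasgrp3, higher), which was near the share of all genes. Within the numbers 1 and 2, the log2 ratios of KO to WT were -1.20 and -1.59 for Igkc, -1.36 and -0.87 for Cd79b, -0.96 and -1.21 for Ms4a1, -0.88 and -0.61 for Ighm, and -0.47 and -1.08 for Cd79a. Over the alternatives, these adjusted p-values were the lowest of Igkc, Cd79b, Ms4a1 and Ighm, and the highest was 1 for each.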

Other observations

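Genes of body cavity macrophages and of B-1 cells were looked up after the segment values were seen. Gata6, the transcription factor of large peritoneal macrophages, had WT counts of 38 and 29 and KO counts of 181 and 123 (log2 fold change 1.93, SE 0.38, edgeR adjusted p 0.286), opposite in direction to Igkc. Prg4, a gene of the same cells, had WT counts of 40 and 34 and KO counts of 72 and 85 (log2 fold change 0.83, SE 0.33, edgeR adjusted p 0.750), and Timd4 had WT counts of 5 and 103 and KO counts of 11 and 34. The resident macrophage genes Cd5l and Vsig4 had WT counts of 980 and 916 and of 625 and 540, and KO counts of 1946 and 2117 and of 777 and 884 (log2 fold changes 0.85, SE 0.22, and 0.26, SE 0.22, edgeR adjusted p 0.391 and 0.949). Cd5, carried by B-1a cells, had WT counts of 2 and 2 and KO counts of 3 and 6, too few to be tested. Spn had WT counts of 118 and 161 and KO counts of 158 and 239, and Zbtb32 had WT counts of 3 and 10 and KO counts of 6 and 5, both with overlapping libraries. S100a9, a neutrophil gene, had WT counts of 91 and 82 and KO counts of 2 and 1. These values bear on which cells were sequenced, since the labels give only macrophage and the study gives bone marrow as their source, and the source of the transcripts was not tested.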
